A study of Mus musculus with 4 samples.

Results

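ABC efflux transporters are membrane pumps that spend ATP to move drugs, conjugated toxins and lipids out of cells. Measured here were 8 of their genes, chosen by name: *Abcb1a*, *Abcb1b*, *Abcc1*, *Abcc2*, *Abcc3*, *Abcc4*, *Abcg2* and *Abca1*, which are 8 of 19609 gene rows. All 8 were in the table, and each was followed across 23 clusters of kidney nuclei and 4 mice. The tissue was kidney cortex of male mice on a mixed background, 1 mouse for each condition, and nuclei were sequenced on the 10x platform. Control mice carried the TRE-hKLF6 transgene alone, and OE mice carried CAG-rtTA,TRE-hKLF6, in which a CMV-chicken beta-actin promoter drives rtTA throughout the body, so that doxycycline switches on human *KLF6*, a transcription factor. Per the study's methods, all 4 mice ate a diet with 200 mg/kg doxycycline. For each genotype, 1 mouse received aristolochic acid I (AAI), a plant nephrotoxin that damages DNA in the proximal tubule, as 1 injection of 2 mg/kg, and was killed 24 hours later. The other mouse of each genotype is labelled with no treatment, and is called uninjured below. The 4 groups are named Control, Control_AAI, OE and OE_AAI. The table holds mouse *Klf6* and no row for the human transgene, so overexpression could not be checked in it.

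Proximal tubule (PT) cells take up organic anions, toxins and drugs from blood with carriers of the basolateral membrane, and hand them to ABC pumps and exchangers of the apical brush border for excretion into urine. *Abcb1a* and *Abcb1b* are the mouse genes of P-glycoprotein (MDR1), the multidrug pump of the brush border. *Abcc2* (MRP2), *Abcc4* (MRP4) and *Abcg2* (BCRP) are further apical pumps, for glutathione and glucuronide conjugates, for organic anions and cyclic nucleotides, and for sulfated conjugates and urate. *Abcc1* (MRP1) and *Abcc3* (MRP3) act at basolateral membranes, and *Abca1* hands cholesterol to apolipoprotein A-I.

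Values are the mean over the nuclei of 1 cluster in 1 mouse of counts scaled to 10000 per nucleus, written below as levels. Numbers of nuclei and counts behind a level are not in the table, so no interval for counting error was given, and with 1 mouse per condition there is no spread between mice and no test of any comparison between conditions. Every difference describes these 4 mice. Differences were taken on a log2(level + 1) scale, which understates those of low genes, and were called higher or lower from 0.2 where the larger level was at least 0.5. Counts of called genes are set against the share of all genes called by the same rule. Clusters had been formed on expression itself, so a difference between clusters is a description. Because levels are shares of each nucleus's RNA, a higher share and less of other RNA cannot be told apart.

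Cluster names come from the study's order of clusters and were checked on marker lists. Of 15 lists, the PT, endothelial (EC), podocyte, macrophage, mesangial (MC), loop of Henle ascending limb (LH-AL), distal convoluted tubule (DCT), connecting tubule (CNT), principal cell (CD_PC) and intercalated cell (IC) lists summed highest in clusters of their own name, while that for the descending limb (LH-DL) was highest in LH-DL in 2 mice and in MC in 2. The 5 PT markers (*Lrp2*, *Slc34a1*, *Slc5a12*, *Slc5a2*, *Cubn*) summed to 61.6 to 81.3 in EC-1 and to 55.1 to 71.0 in DCT_CNT, beside 81.8 to 108.1 in the mean of the 5 normal PT clusters, and the 5 EC markers summed to 9.30 to 12.4 in EC-1 against 58.1 to 63.5 in EC-2. EC-1 and DCT_CNT thus carried most of the PT marker level, and levels in them are read beside it. In the uninjured mice, the clusters named InjuredPT-A and InjuredPT-B had an injury list (*Havcr1*, *Krt20*, *Cxcl1*, *Vcam1*, *Lcn2*, *Polr2a*) at only 1.02 to 1.90, near the 1.46 and 1.61 of normal PT, and 40.8 to 62.6% of genes at 0, against 22.2 to 29.7% in the AAI mice. Genes at 0 made up 15.1 to 63.4% over all 92 columns, and over 60% in LH-AL-3 in all 4 mice, so a level of 0 there says little.

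**Figure D1:**
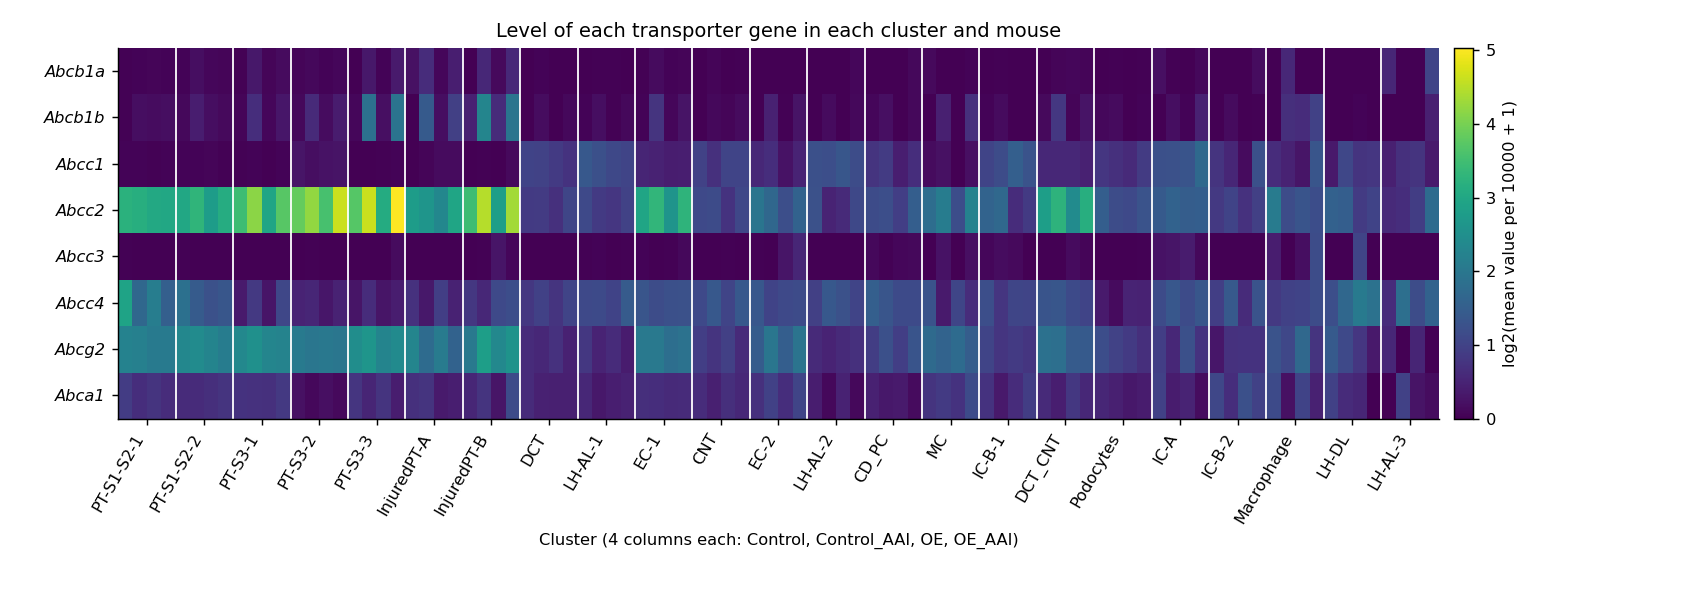
Heatmap of log2(level + 1) for the 8 genes (rows) in 23 clusters, each with 4 columns for the Control, Control_AAI, OE and OE_AAI mouse. The *Abcc2* row is brightest in the PT-S3 clusters and InjuredPT-B of the AAI mice, reaching a level of 31.7 in PT-S3-3 of OE_AAI, and the *Abcc1* row is dark in the PT and brighter in the distal clusters.

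The regions just before the start sites of *Abcb1b* and *Abcc2* are shown because these were the 2 genes called higher with AAI in the normal PT of both genotypes, where 11.7% of all genes tested were called higher in control and 19.5% in OE. RefSeq's promoter table on GRCm38.p6 held 9 promoters for 6 of the 8 genes. For *Abcb1b*, the 250 bases before the start are chr5:8797897-8798146 on the plus strand. For *Abcc2*, 134 bases are given, chr19:43782058-43782191 on the plus strand, since the GENCODE gene model begins 116 bases before RefSeq's start. Capitals mark matches, on either strand, to CCAAT (the box of the factor NF-Y), GGGCGG (the core that Sp1 binds), CACCC (a box for KLF factors), TGANTCA (the AP-1 site), TGANNNNGC (the antioxidant response element of NRF2) and the half-site that p53 binds.
Abcb1b: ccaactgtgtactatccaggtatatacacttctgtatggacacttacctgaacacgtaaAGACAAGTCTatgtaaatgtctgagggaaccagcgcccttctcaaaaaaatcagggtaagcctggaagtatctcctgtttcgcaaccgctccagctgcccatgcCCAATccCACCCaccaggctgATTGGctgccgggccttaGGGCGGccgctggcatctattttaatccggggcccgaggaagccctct
Abcc2: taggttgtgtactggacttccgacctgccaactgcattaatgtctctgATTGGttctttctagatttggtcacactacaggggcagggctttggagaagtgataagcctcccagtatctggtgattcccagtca
In *Abcb1b*, the match to the p53 half-site lies at bases -191 to -182 from the start, the pair of CCAAT matches at -87 to -83 and -66 to -62 (the latter on the minus strand), CACCC at -80 to -76, and GGGCGG at -48 to -43. No 2 of these matches overlap. In *Abcc2*, CCAAT matches on the minus strand lie at -202 to -198 and -28 to -24, TGANNNNGC at -98 to -90, and a p53 half-site match at -41 to -32, the latter 3 beyond the stretch shown. Among 32851 promoters of the same 250 bases, 7.13% held a p53 half-site match, 33.8% CCAAT, 32.7% GGGCGG, 52.0% CACCC, 35.2% TGANNNNGC and 6.75% TGANTCA. RefSeq's start of *Abcb1a* lies 92986 bases before GENCODE's, so its window is not shown. That window held CACCC matches alone. *Abcg2*, *Abcc4* and *Abca1* had no match to CCAAT or the p53 half-site in any of their 6 windows. Each of these genes had GGGCGG matches, and *Abcg2* and *Abcc4* also had CACCC and TGANNNNGC. A match says only that these letters are present, and binding was not measured here.

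*Abcb1b* (ENSMUSG00000028970, chr5:8798147-8866315, GRCm38) had low levels in uninjured PT and higher ones with AAI, chiefly in segment S3. Its mean level over the 5 normal PT clusters was 0.0589 in Control, 0.846 in Control_AAI, 0.123 in OE and 0.719 in OE_AAI. Both AAI mice lay above both uninjured mice, by a ratio of 14.4 in control and 5.82 in OE. On the log2(level + 1) scale the difference was 0.80 in control, rank 35 from the top of 4052 genes tested, and 0.61 in OE, rank 107 of 4133. *Abcb1b* passed the minimum only through the AAI mice, so a higher call was the only one open to it.

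The S3 segment held most of this. Over the 3 PT-S3 clusters the *Abcb1b* level was 0.0643, 1.25, 0.114 and 1.12 in Control, Control_AAI, OE and OE_AAI, whereas over both PT-S1-S2 clusters it was 0.0509, 0.236, 0.138 and 0.111, with the OE_AAI mouse below the OE mouse. Within S3, PT-S3-3 stood out at 0.0694, 2.66, 0.154 and 2.84, with differences of 1.78 (rank 7 of 4210) and 1.73 (rank 16 of 4254). In PT-S3-1 the levels were 0.0477, 0.584, 0.0601 and 0.229, and in PT-S3-2 they were 0.0757, 0.511, 0.127 and 0.305. In these 2 clusters only the control difference was called (0.60 and 0.49), since the OE pair stayed under the minimum. PT-S3-3 of the AAI mice also had a lower sum of the 5 PT markers (35.3 and 31.1, against 86.2 and 63.4 uninjured) and a higher sum of the 6 injury markers (4.81 and 4.57, against 1.49 and 1.65). The part of these in the *Abcb1b* difference was not tested.

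InjuredPT-B had the highest mean *Abcb1b* level of the 23 clusters, at 0.381, 3.87, 0.527 and 2.88. Next came PT-S3-3, whose range over the 4 mice overlapped that of InjuredPT-B, and then InjuredPT-A at 0, 1.68, 0.135 and 0.925. Outside the PT, macrophages had 0, 0.594, 0.551 and 0.962, and MC had 0, 0.363, 0 and 0.622. Both AAI mice lay above both uninjured mice in 18 of the 23 clusters and below both in 0, with no minimum on the level. Of all gene and cluster pairs above 0 in some mouse, 18.2% lay above and 17.9% below. In 9 clusters *Abcb1b* reached the minimum in some mouse, and these are among the 18. In 7 of the 9 only an AAI mouse reached it, so the minimum itself favoured that order. EC-1 (0.0399, 0.679, 0.0634, 0.210) and DCT_CNT (0.0854, 0.770, 0.0446, 0.202) are 2 of the 9, and carried PT markers as given above.

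The genes whose profile over the 92 columns was most like that of *Abcb1b* were *Cxcl1* (Pearson r of log2 levels 0.82), a neutrophil chemokine, *Mdm2* (0.80), the ubiquitin ligase that p53 induces, and *Plin2* (0.78), a coat protein of lipid droplets, among 9857 genes compared. Columns share mice and libraries, so r is a description.

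**Figure D2:**
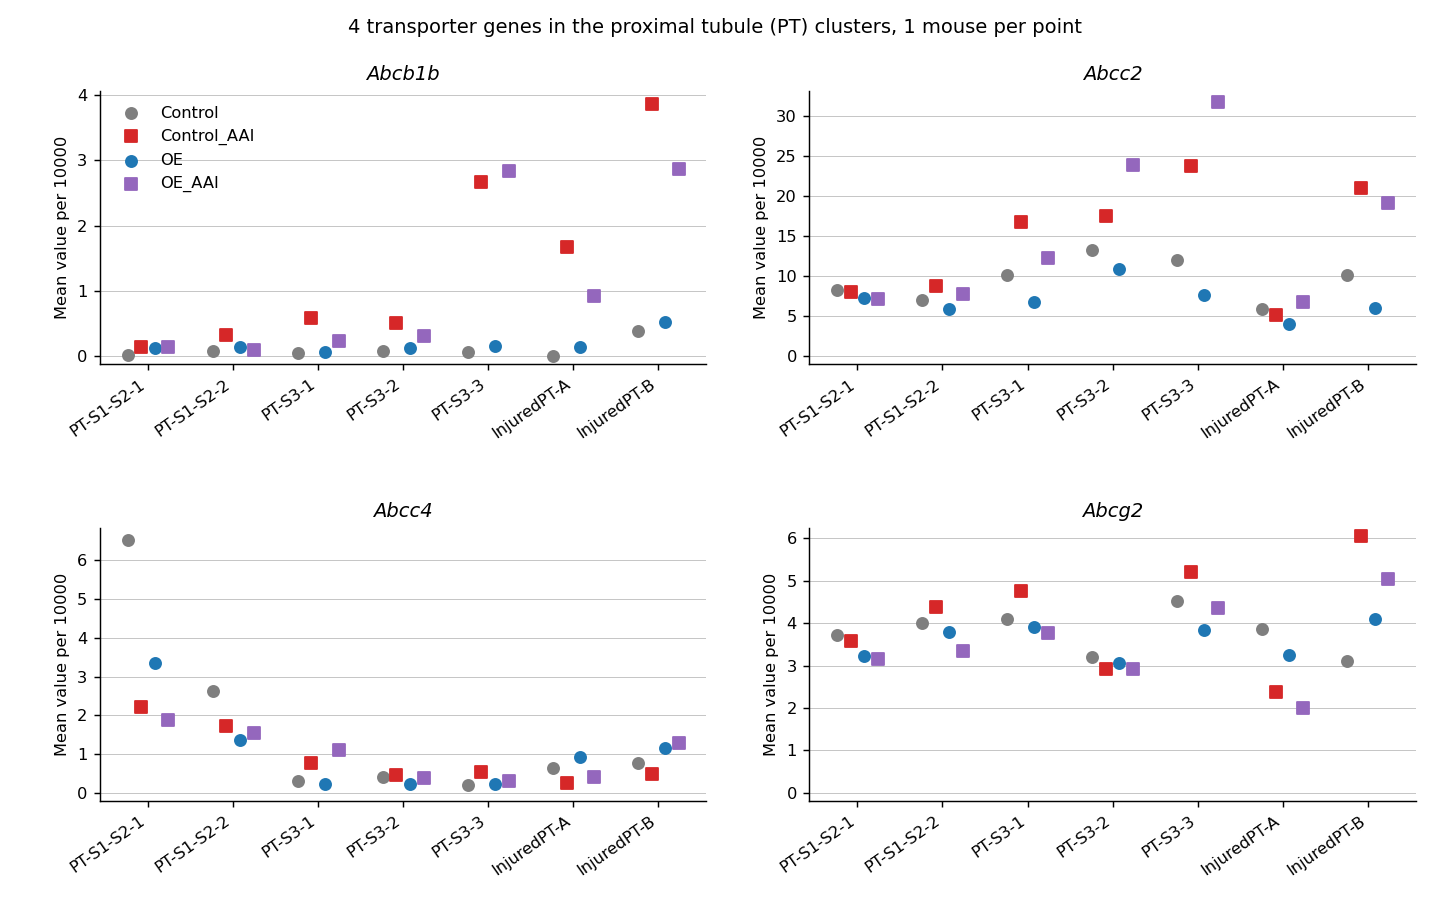
Levels (mean per 10000, linear axis) of *Abcb1b*, *Abcc2*, *Abcc4* and *Abcg2* in 5 normal and 2 injured PT clusters, with 1 point per mouse (circles uninjured, squares AAI). *Abcb1b* squares stand apart from circles in PT-S3-3 (2.66 and 2.84 against 0.0694 and 0.154) and InjuredPT-B, *Abcc2* squares in the PT-S3 clusters, and the *Abcc4* circle of Control stands highest in PT-S1-S2-1 at 6.52.

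*Abcb1a* (ENSMUSG00000040584, chr5:8660077-8748575), the other P-glycoprotein gene, lies 49571 bases before *Abcb1b*. It stayed under the minimum in normal PT, with levels of 0.0265, 0.152, 0.0447 and 0.109 in Control, Control_AAI, OE and OE_AAI. In PT-S3-3 it stood at 0.00610, 0.244, 0.0291 and 0.290, and in InjuredPT-B at 0, 0.482, 0.0959 and 0.498, with both AAI mice above both uninjured mice in each. InjuredPT-A, at 0.174, 0.556, 0.0574 and 0.333, was the only cluster called in the control pair, and LH-AL-3, at 0.461, 0, 0 and 1.05, the only one in OE. In each of these calls only the AAI mouse reached the minimum, so a higher call was the only one open. The longest transcripts of the pair are 87.6% identical over 4005 aligned bases, with an identical run of 338 bases. How reads that fit both genes were counted is not stated, so the split between them is uncertain, more so for the lower one. Per 10 kb of gene span, the highest cluster mean was 0.0426 for *Abcb1a* and 0.281 for *Abcb1b*. The profile of *Abcb1a* correlated with that of *Abcb1b* at r = 0.60 over 92 columns, below the 0.70 of its most alike gene, *E030030I06Rik*, the next being *Wdr12* and *Pus3* at 0.68 each.

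*Abcc2* (ENSMUSG00000025194, chr19:43782192-43840740) had the highest level per length of the 8 genes in normal PT, at 1.73, 2.55, 1.31 and 2.83 per 10 kb of gene span in the 4 mice, the next being *Abcg2* at 0.352, 0.375, 0.321 and 0.315. Its mean level in normal PT was 10.1 in Control, 14.9 in Control_AAI, 7.67 in OE and 16.5 in OE_AAI. Both AAI mice lay above both uninjured mice, by ratios of 1.47 in control and 2.16 in OE. On the log2(level + 1) scale these were 0.52, rank 91 of 4052, and 1.02, rank 21 of 4133. OE was lower than Control without injury (-0.36) and not called apart with AAI (0.14), which together make up the wider OE difference. With AAI the clusters went both ways, OE_AAI being lower than Control_AAI in PT-S3-1 (-0.42) and higher in PT-S3-2 (0.43) and PT-S3-3 (0.40).

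By segment, *Abcc2* over PT-S3 was 11.8, 19.3, 8.42 and 22.6, and over PT-S1-S2 it was 7.66, 8.34, 6.55 and 7.40. The S3 levels of the AAI mice stood above both uninjured ones, with differences of 0.67 and 1.33, while in S1-S2 the differences were 0.11 and 0.15. PT-S3-3 again led, at 11.97, 23.8, 7.59 and 31.7 (0.93, rank 63 of 4210, and 1.93, rank 5 of 4254). PT-S3-2 followed at 13.3, 17.5, 10.9 and 23.9, and PT-S3-1 stood at 10.1, 16.8, 6.73 and 12.3. In the OE_AAI mouse, PT-S3-1 had an S3 marker sum (*Cyp7b1*, *Slc7a13*, *Slc22a7*, *Acsm3*) of 3.70, against 11.8 to 18.6 in the other mice, so that cluster differed between mice in more than *Abcc2*. In PT-S3-3 and PT-S3-2, where the S3 sum was higher with AAI, the 4 markers came to 36.9 and 42.6 against 26.6 and 21.1, and to 82.8 and 78.7 against 65.8 and 69.6. Their part in the *Abcc2* difference was not tested.

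The injured clusters differed in *Abcc2*. InjuredPT-B had 10.1, 21.1, 6.03 and 19.2, close to the S3 clusters, with both AAI mice above both uninjured mice. InjuredPT-A had 5.87, 5.15, 4.02 and 6.81, with overlap between AAI and uninjured mice, and there the OE pair was called higher (0.64) and the control pair was not called (-0.16). Over the 23 clusters, *Abcc2* was called higher with AAI in 8 in control and 18 in OE, and in 8 in both: PT-S3-1, PT-S3-2, PT-S3-3, PT-S1-S2-2, InjuredPT-B, EC-1, DCT_CNT and MC. It was called lower in 5 in control and in 0 in OE. Of all gene and cluster pairs tested, 27.6% were called higher in control and 31.6% in OE, and 25.2% and 26.2% lower.

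Outside the PT, the level of *Abcc2* followed that of PT markers. In the 64 columns of the 16 other clusters it was 2.83 to 66.7% of the normal PT level of the same mouse, with a median of 11.5%, beside 6.52 to 80.5% and 18.5% for the middle of the 5 PT markers. In 0 of the 64 columns did it exceed the highest of them. PT transcripts in nuclei of other types and *Abcc2* expression there were not told apart. Genes most like *Abcc2* were *Pter* (r = 0.94), *B3gat2* (0.92) and *Scp2* (0.92), the last a peroxisomal sterol carrier and thiolase.

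**Figure D3:**
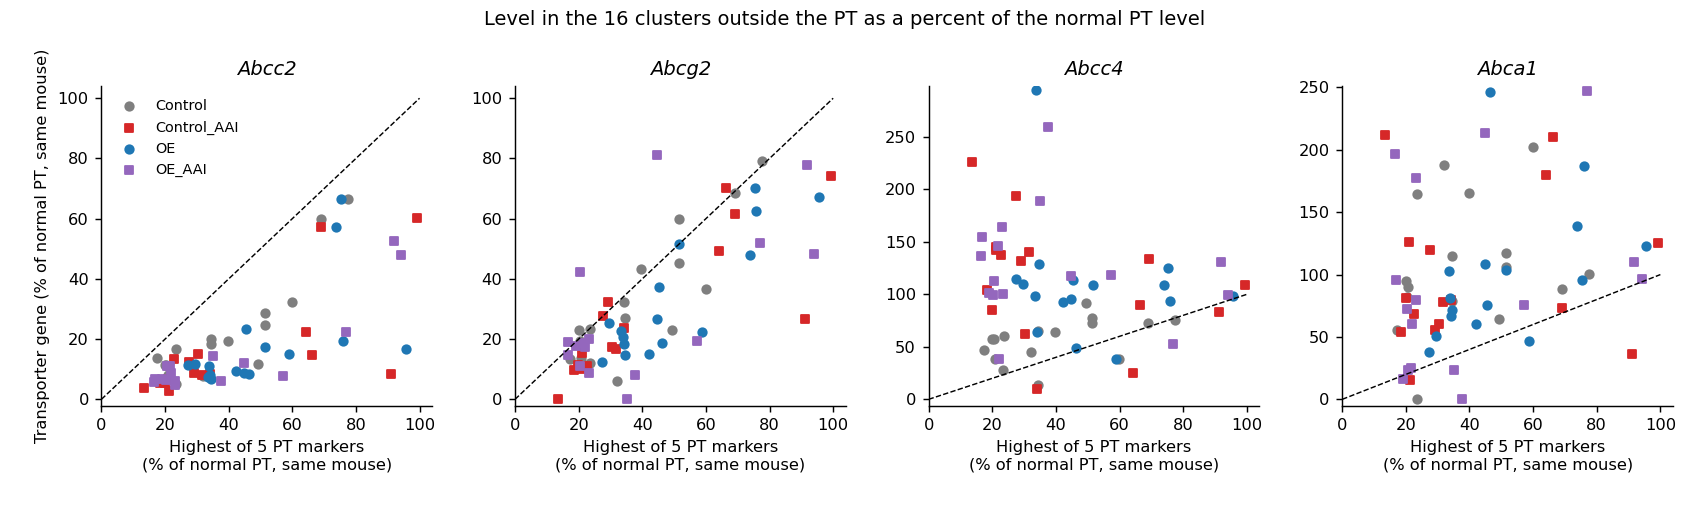
For *Abcc2*, *Abcg2*, *Abcc4* and *Abca1*, the level in each of 64 columns outside the PT as a percent of normal PT in the same mouse (y) against the highest of 5 PT markers on the same percent scale (x), with a dashed line where both are equal. *Abcc2* lies under the line in all 64 columns and *Abcg2* above it in 10, while *Abcc4* lies above it in 56 and *Abca1* in 57.

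*Abcg2* (ENSMUSG00000029802, chr6:58584523-58695676) differed by less than the threshold between the mice in normal PT as a whole. Its levels were 3.91, 4.17, 3.57 and 3.50 in Control, Control_AAI, OE and OE_AAI, with AAI differences of 0.07 and -0.02 and genotype differences of -0.10 without and -0.20 with injury, none of them called. The last lies just inside the threshold, and was called at a pseudocount of 0.1 (-0.24), with PT-S1-S2 clusters only (-0.23) and after centring (-0.21). OE_AAI was called lower than Control_AAI in 3 of the 5 clusters, PT-S1-S2-2 (-0.31), PT-S3-1 (-0.27) and PT-S3-3 (-0.22). PT-S3 (3.94, 4.29, 3.61, 3.68) and PT-S1-S2 (3.87, 3.98, 3.51, 3.24) had overlapping levels. The injured clusters split with AAI. InjuredPT-B had the highest mean level of the 23 clusters at 3.104, 6.04, 4.09 and 5.03, overlapping in range with PT-S3-3 (4.53, 5.20, 3.84, 4.34), and InjuredPT-A had 3.86, 2.38, 3.24 and 1.99. AAI mice were thus above uninjured ones in InjuredPT-B (0.78 and 0.24) and below them in InjuredPT-A (-0.52 and -0.50).

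In EC-2, the cluster with the highest EC markers, *Abcg2* was 1.76, 2.92, 1.84 and 2.84, higher with AAI in both genotypes (0.50 and 0.44). BCRP is a known pump of capillary endothelium. As a percent of normal PT the EC-2 level was 45.1, 70.1, 51.4 and 81.2, and the highest PT marker there was 51.5, 66.3, 51.6 and 44.7, so *Abcg2* exceeded it in both AAI mice. The PT marker sum in EC-2 was lower in the AAI mice (26.4 and 25.5) than in the uninjured ones (32.5 and 29.5). Elsewhere *Abcg2* was called higher in both genotypes in InjuredPT-B and CD_PC, and lower in both in 5 clusters: InjuredPT-A, LH-AL-1, IC-A, macrophages and LH-DL. Only uninjured mice reached the minimum in LH-AL-1, in IC-A in control and in LH-DL in OE. A lower call was thus the only one open there. By genotype, *Abcg2* was higher in 4 of 22 clusters tested in control and 3 of 22 in OE, and lower in 6 and 8. Of all gene and cluster pairs, 27.6% and 31.6% were higher and 25.2% and 26.2% lower. The share of all pairs called the same way in both genotypes was not counted. The most alike genes were *Cyp2j5* (r = 0.91), *Kcnj15* (0.91) and *Aass* (0.90), and of the 7 other members *Abcc2* was closest, at 0.87.

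*Abcc4* (ENSMUSG00000032849, chr14:118482692-118706219) was lower with AAI in PT-S1-S2 and higher in PT-S3, where its levels were low. In normal PT as a whole it was 2.01 in Control, 1.14 in Control_AAI, 1.08 in OE and 1.05 in OE_AAI, so that the Control mouse stood apart from the other 3. Both PT-S1-S2 clusters together had 4.57, 1.96, 2.36 and 1.71, with AAI differences of -0.91 and -0.31. The 3 PT-S3 clusters had 0.309, 0.595, 0.224 and 0.604, with differences of 0.29 and 0.39. Both AAI mice were below both uninjured mice in S1-S2 and above both in S3. In S3 only the AAI mice reached the minimum, so a higher call was the only one open there.

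PT-S1-S2-1 had the highest mean *Abcc4* level of the 23 clusters, at 6.52, 2.21, 3.36 and 1.87. Its control difference of -1.23 ranked 4083 from the top of 4085 genes, and that in OE was -0.60, rank 4078 of 4165. In PT-S1-S2-2 the levels were 2.63, 1.72, 1.36 and 1.55, where only the control pair was called (-0.42) and OE stood at 0.11. The PT markers of PT-S1-S2-1 summed to 165.0, 156.0, 146.2 and 133.4 in the 4 mice, a narrower spread than that of *Abcc4*. Within S3, PT-S3-1 (0.294, 0.774, 0.221, 1.10) was called higher in both genotypes (0.46 and 0.78). PT-S3-3 (0.214, 0.550, 0.218, 0.317) was called higher in control (0.35), and its OE pair (0.11) stayed under the minimum, as did both pairs in PT-S3-2 (0.419, 0.462, 0.232, 0.394). The S3 marker sum of PT-S3-1 was 18.6, 11.8, 14.4 and 3.70, lower in both AAI mice, and *Abcc4* was higher in S1-S2 than in S3 in every mouse. The part of this in the *Abcc4* difference was not tested.

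Without injury OE was lower than Control for *Abcc4* in normal PT (-0.54, rank 4019 of 4041), and in PT-S1-S2-1 (-0.79) and PT-S1-S2-2 (-0.62), whereas with AAI the normal PT difference was -0.07. Beyond the PT, *Abcc4* was spread over nearly all clusters: LH-DL had 1.30, 2.21, 3.17 and 2.72, LH-AL-3 had 0.566, 2.58, 1.24 and 1.98, and podocytes had the lowest mean at 0.281, 0.111, 0.418 and 0.398. Relative to normal PT it exceeded every PT marker in 56 of 64 columns, and in all 4 mice in 12 clusters, among them DCT, CNT, EC-2, IC-A and LH-DL. *Abca1* did so in 57 columns, and the share of all genes that would was not counted. The profile of *Abcc4* was not closely shared by any gene, the most alike being *Atxn1* (r = 0.62), *Slc7a8* (0.61), a basolateral amino acid exchanger, and *Slc16a10* (0.60), an aromatic amino acid carrier.

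*Abcc1* and *Abcc3*, the basolateral pumps, were near absent from PT nuclei. *Abcc1* (ENSMUSG00000023088, chr16:14361558-14475737) stood at 0.0606, 0.0479, 0.0609 and 0.0668 in normal PT, under the minimum. Its highest means were in IC-A (1.36, 1.37, 1.47, 2.31), IC-B-1 (1.04, 1.26, 1.87, 1.44), LH-AL-2 (1.34, 1.32, 1.55, 1.24) and LH-AL-1 (1.63, 1.35, 1.13, 1.04), which overlap over the 4 mice. Every mouse's level in LH-AL-1 lay above every level in the next cluster, CNT, but barely. The lowest in LH-AL-1 was 1.035 in OE_AAI, and the highest in CNT was 1.034 in OE. With AAI, *Abcc1* was called higher in 2 clusters and lower in 2 of 13 tested in control, higher in 5 and lower in 2 of 12 in OE, and in the same direction in both genotypes in 0. All genes gave 27.6% higher and 25.2% lower in control, and 31.6% and 26.2% in OE. Most alike in profile were *AC157583.2* (r = 0.82), *Ptpn18* (0.80) and *Slc16a7* (0.80), a monocarboxylate carrier, and against *Abcc2* and *Abcg2* the profile ran opposite, at -0.70 and -0.78.

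*Abcc3* (ENSMUSG00000020865, chr11:94343295-94392997) was the lowest of the 8 in normal PT by level per length, at 0.000874 to 0.00481 per 10 kb. Macrophages had its highest mean (0.330, 0, 0.143, 1.25), followed by LH-DL, where 3 mice were at 0 and OE stood at 1.03, and IC-A (0.179, 0.223, 0.310, 0.0777). It was at 0 in all mice in 3 clusters and in at least 1 mouse in 19, so no order among clusters could be read for it. *Gltp*, *S100a6* and *Pparg* were most alike (r = 0.71, 0.71 and 0.65), over columns that are mostly near 0.

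*Abca1* (ENSMUSG00000015243, chr4:53030787-53159895), the cholesterol exporter that the liver X receptor (LXR) induces, was spread thinly over the whole kidney. In normal PT it was 0.588, 0.453, 0.550 and 0.490, lower with AAI in both genotypes by amounts that were not called (-0.13 and -0.06). PT-S3-2 had the lowest mean of the 23 clusters, 0.165, 0.0828, 0.151 and 0.0961, and PT-S3-3 was called lower with AAI in both genotypes (0.722, 0.429, 0.679, 0.317). InjuredPT-B went the other way, 0.457, 0.699, 0.213 and 1.20, and so did EC-2, 0.623, 0.952, 0.572 and 1.05. Only the uninjured mice reached the minimum in PT-S3-3, so a lower call was the only one open there. In InjuredPT-B only the AAI mice reached it, so only a higher call was open. All 4 mice reached it in EC-2. The highest means were in IC-B-2 (1.11, 0.572, 1.36, 0.963), MC (0.692, 0.815, 0.675, 1.21) and EC-2, with overlapping ranges. In macrophages it was 1.19, 0.165, 1.03 and 0.371, below in both AAI mice. None of its most alike genes came close: *Cyp2d22* 0.58, *Dennd5a* 0.55 and *Qsox1* 0.54.

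By comparison, in normal PT 2 of the 8 genes were called higher with AAI in control (*Abcb1b*, *Abcc2*) and 1 lower (*Abcc4*), of 5 that passed the minimum, or 3 in either direction, where 11.7% of 4052 genes tested were called higher and 23% in either direction. In OE the same 2 were called higher and 0 lower, of 5 that passed, where 19.5% of 4133 were called higher and 34.9% in either direction. Without injury 0 were higher and 2 lower in OE (*Abcc2*, *Abcc4*) of 4 that passed, where 7.84% of 4041 genes were higher and 9.33% lower. With AAI 0 of 4 were called, where 6.32% of 3942 were higher and 7.74% lower. This mean over 5 clusters hides calls in single clusters. Cluster by cluster, 20 pairs of a member and a normal PT cluster passed with AAI, of which 3 were higher in OE_AAI and 7 lower, where 11.7% of 19816 pairs over all genes were higher and 11.8% lower. The higher ones were *Abcc2* in PT-S3-2 and PT-S3-3, given above, and *Abcc4* in PT-S3-1 (0.24). The lower ones were *Abcg2* in 3 clusters and *Abcc2* in PT-S3-1, also given above, *Abcb1b* in PT-S3-1 (-0.37) and PT-S3-2 (-0.21), and *Abcc4* in PT-S3-3 (-0.23). The *Abcb1b* pairs and that of *Abcc4* in PT-S3-3 reached the minimum only in Control_AAI. A lower call was thus the only one open to them. *Abcb1a*, *Abcc1* and *Abcc3* passed in none of these comparisons, and *Abca1* did not pass in the last.

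The injured clusters of the AAI mice were set against normal PT of the same mouse and called where both mice agreed. In InjuredPT-A, 0 of the 4 genes that passed were higher and 3 lower: *Abcc2* (-1.38 in Control_AAI and -1.17 in OE_AAI), *Abcc4* (-0.77, -0.55) and *Abcg2* (-0.61, -0.59). Across all genes 43.3% of 5008 were higher there and 27% lower. *Abcc4* reached the minimum only in normal PT, so a lower call was the only one open to it. *Abcb1b* was higher by 0.54 in Control_AAI and by 0.16 in OE_AAI, the latter not called. In InjuredPT-B, 4 of the 5 that passed were higher: *Abcb1b* (1.40 and 1.17, rank 2 of 4577 and 12 of 4499), *Abcc2* (0.47, 0.20), *Abcg2* (0.45, 0.42) and *Abca1* (0.23, 0.57), where 23.4% of 4148 genes were higher and 13.1% lower. *Abca1* reached the minimum only in InjuredPT-B, so a higher call was the only one open to it. *Abcc4* differed in sign between the mice, at -0.54 and 0.15. The injury marker sum was 29.3 and 26.1 in InjuredPT-A and 8.96 and 12.1 in InjuredPT-B, and the PT marker sum 23.2 and 34.8 in the former and 37.9 and 28.3 in the latter.

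**Figure D4:**
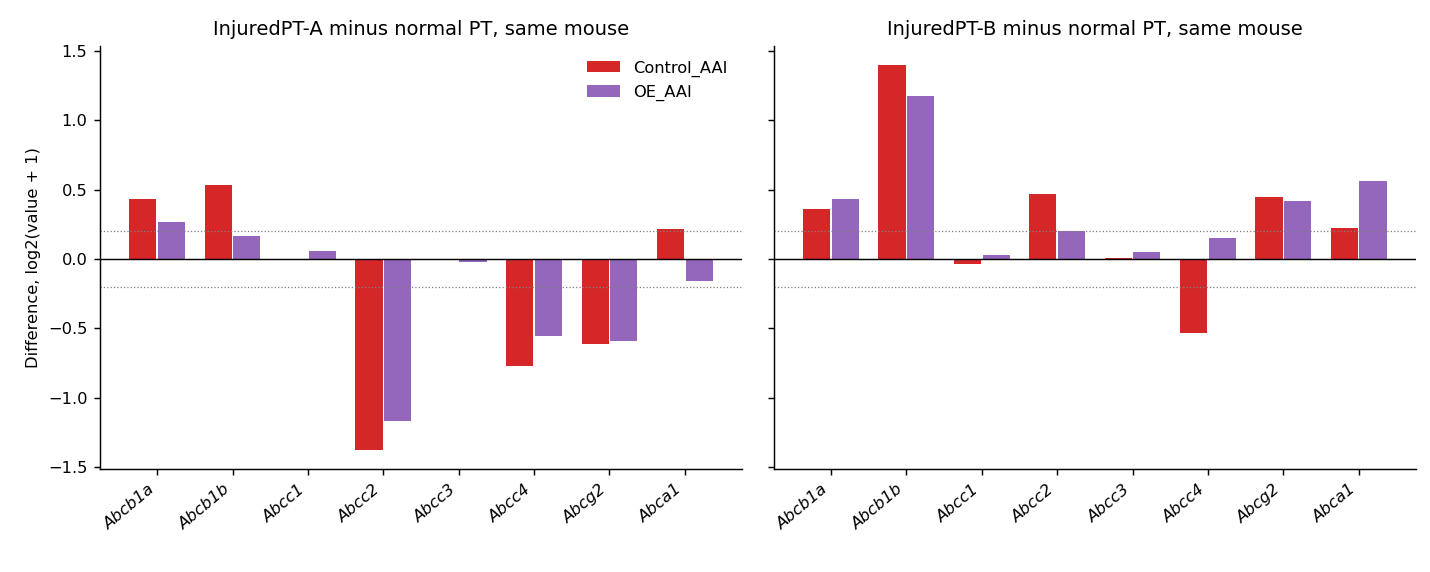
Differences of the 8 genes between InjuredPT-A (left) or InjuredPT-B (right) and normal PT of the same AAI mouse, on the log2(level + 1) scale, with 1 bar per mouse and dotted lines at the threshold of 0.2. In InjuredPT-A the *Abcc2*, *Abcc4* and *Abcg2* bars point down in both mice, and in InjuredPT-B the *Abcb1b* bars stand highest at 1.40 and 1.17.

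Over all clusters, 106 of the 184 pairs of a member gene and a cluster passed the minimum in control, of which 34 were called higher with AAI and 28 lower, or 32.1% and 26.4%. All genes gave the 27.6% and 25.2% above. In OE 98 passed, 43 higher and 19 lower, or 43.9% and 19.4%, against 31.6% and 26.2% for all genes. *Abcc2* made up 18 of the 43. By the count of clusters in which both AAI mice lay above both uninjured ones, *Abcc2* had 12 of 23 tested, *Abcc4* 8 of 21, *Abcg2* 3 of 22 and *Abca1* 3 of 18. The reverse held in 1, 4, 9 and 7. Summed over the 8 genes, 37 of 110 pairs at or above the minimum lay above and 22 below, where 24.9% and 19.4% of all gene and cluster pairs did. Only an AAI mouse reached the minimum in 15 of the 110, of which *Abcb1b* made up 7.

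**Figure D5:**
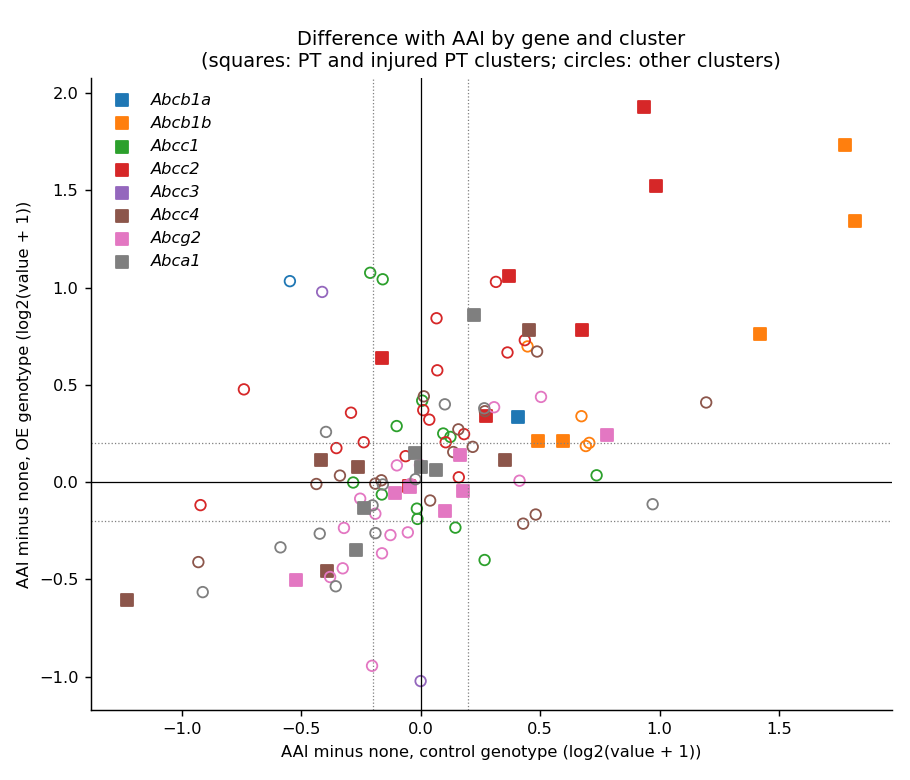
AAI minus uninjured differences on the log2(level + 1) scale, control genotype (x) against OE (y), for each gene and cluster pair that passed the minimum in at least 1 genotype (squares, normal and injured PT clusters; circles, the others). Dotted lines mark 0.2; *Abcb1b* and *Abcc2* squares reach furthest to the upper right, at 1.82 and 1.34 for *Abcb1b* in InjuredPT-B, and the *Abcc4* square furthest to the left is PT-S1-S2-1.

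Few of the remaining ABC genes passed the minimum, so few could be called. Of 24 other exporters in the table, 3 passed the minimum in normal PT in control and 2 in OE, and only *Abca3*, a lipid pump of lamellar bodies, was called in both genotypes, lower by 0.25 and 0.28 on the log2 scale. Of all genes, 23% were called in either direction in control and 34.9% in OE. In InjuredPT-A all 3 that passed were called, *Abcc5* (-0.63, -0.54) and *Abca3* (-0.24, -0.33) lower and *Abca13* (0.31, 0.31) higher. Of all genes, 43.3% were higher there and 27% lower. *Abcc5* reached the minimum only in normal PT, so a lower call was the only one open to it. In OE_AAI *Abca13* reached it only in InjuredPT-A, so only a higher call was open there. In InjuredPT-B 2 of the 24 passed and 0 were called, where 23.4% of all genes were higher and 13.1% lower. *Abca13* was the one other exporter whose cluster mean, not scaled for length, reached 5, in DCT (49.8, 76.5, 29.7, 32.4) and LH-AL-2 (25.7, 23.9, 18.7, 14.7). Of 18 ABC proteins of organelles, channels and soluble kinds, 5 passed in normal PT in control and 4 in OE, and 0 were called in both genotypes. In InjuredPT-A 2 of 5 were higher, *Abce1* (0.35, 0.42) and *Abcf1* (0.72, 0.25), and 1 lower, *Abcd3* (-0.47, -0.45). In InjuredPT-B 1 of 5 was higher, *Cftr* (0.25, 0.66). *Abce1* and *Cftr* reached the minimum only in the injured cluster, so a higher call was the only one open to them.

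Carriers that feed the pumps were mostly lower in both injured clusters. Of 16 uptake and exchange carriers, 14 passed in normal PT: 1 was higher and 4 lower with AAI in control (median -0.03, all genes 0.01), and 2 higher and 7 lower in OE (median -0.16, all genes 0.05). In either direction these are 5 and 9 of 14, where 23% and 34.9% of all genes were called, and 11.7% and 19.5% were called higher. In both genotypes *Slc22a12* (URAT1, the urate exchanger; -0.81, -1.13) and *Slc22a7* (OAT2; -0.35, -0.54) were lower and *Slc17a3* (NPT4; 0.44, 0.29) higher. *Slc22a7* reached the minimum only in the uninjured mice, as did *Slc22a12* in OE, so a lower call was the only one open there. InjuredPT-A had 2 higher and 9 lower of 13 (median -0.48, all genes 0.11), where 43.3% of all genes were higher and 27% lower, led by *Slc17a3* (-1.73, -1.58), *Slco1a6* (-1.41, -1.36) and *Slc47a1* (MATE1; -1.12, -1.04). InjuredPT-B had 0 higher and 6 lower of 12 (median -0.22, all genes 0.06), where 23.4% were higher and 13.1% lower, with the same 3 in the lead at -0.60 and -0.58, -0.51 and -0.93, and -0.49 and -0.74. Among the 9 lower in InjuredPT-A, *Slc22a4* and *Slc22a5* reached the minimum only in normal PT, so only a lower call was open to them. *Pdzk1*, the scaffold that holds apical pumps and carriers in the brush border, was higher in normal PT (0.28, 0.49) and lower in InjuredPT-A (-1.48, -1.43) and InjuredPT-B (-0.60, -1.05), and *Ezr* was higher in both injured clusters (0.38 and 0.30, 0.28 and 0.24).

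Genes of the factors that control these pumps, and other targets of the same factors, were counted alongside. The shares of all genes were the same: 11.7% higher in control and 19.5% in OE with AAI, 43.3% in InjuredPT-A and 23.4% in InjuredPT-B. In either direction, 23% were called with AAI in control and 34.9% in OE. Called lower were 27% in InjuredPT-A and 13.1% in InjuredPT-B. Of 17 transcription factor genes, *Ppara* (0.94, 0.61), the fatty acid receptor, and *Nfe2l2* (0.43, 0.45), which encodes NRF2, were higher with AAI in normal PT of both genotypes. In InjuredPT-A 6 of 9 that passed were higher and 3 lower, with *Klf6* at 2.59 and 2.53, *Ppara* at -2.27 and -1.97 and *Nr1h4*, the bile acid receptor FXR, at -1.86 and -1.62. In InjuredPT-B *Klf6* was 1.09 and 1.05 higher, *Nfe2l2* 0.68 and 0.47 higher, and *Ppara* -0.66 and -0.95. *Klf6* reached the minimum only in the injured clusters, so a higher call was the only one open to it. The same held in InjuredPT-A for *Trp53*, another of the 6. Its levels there were 1.29 in Control_AAI and 0.776 in OE_AAI, against 0.252 and 0.211 in normal PT. NRF2 targets showed 3 higher and 1 lower of 6 that passed in control (median 0.18, all genes 0.01) and 3 higher of 6 in OE (median 0.20, all genes 0.05), with *Nqo1* higher in both (0.45, 0.50). In each genotype only the AAI mouse brought 1 of the 3 higher genes to the minimum, so a higher call was the only one open to it.

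Of 15 p53 target genes, 6 of the 8 that passed were higher with AAI in control (median 0.78) and 5 of 6 in OE (median 0.84), and 0 lower. Only the AAI mouse brought 6 of the 8 and 4 of the 6 to the minimum, so that a higher call was the only one open to them. Of the 2 that reached it uninjured, *Mdm2* was called higher in both genotypes, at levels of 0.970 in Control, 4.50 in Control_AAI, 0.841 in OE and 4.86 in OE_AAI. *Mdm2* (1.48, 1.67), *Trp53inp1* (1.25, 1.05) and *Ccng1* (1.02, 0.92) led. In InjuredPT-A 9 of 11 were higher and 1, *Sesn1*, lower (median 1.21, all genes 0.11). In InjuredPT-B 8 of 10 were higher and 0 lower (median 0.41, all genes 0.06). Only 6 targets passed in normal PT of OE, so the rest reached the minimum in OE_AAI only through the injured cluster. A higher call was the only one open to those. LXR targets, the group of *Abca1*, had 1 higher of 4 in control (median 0.02, all genes 0.01) and 2 lower of 3 in OE (median -0.34, all genes 0.05), and none was called the same way in both genotypes in normal PT. Of all genes, 23% were called in either direction in control and 34.9% in OE. Only the AAI mouse brought the 1 higher gene to the minimum in control, and 0 of the 3 that reached it uninjured were higher. In InjuredPT-A *Smpdl3a* (0.72, 0.83) and *Apoe* (0.62, 0.67) were higher, and in InjuredPT-B *Lpcat3* (0.39, 0.41).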

How the data were processed

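Nuclei of kidney cortex from 4 male mice, 1 per condition, were prepared as 1 technical batch and sequenced on the 10x platform. Per the study's methods, alignment and counting were done by the authors in Cell Ranger against pre-mRNA models of the mouse, so intronic reads count, and nuclei passing limits on genes and mitochondrial reads were clustered in Seurat. Removal of doublets or of free RNA is not described for these data. The signal values deposited by the authors are the mean, over the nuclei of 1 cluster in 1 mouse, of counts scaled to 10000. The unit was read from the values, and depth is not in the table. Long genes give more pre-mRNA reads, so levels of the 8 genes were compared with each other only per length of span.

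Of 19632 rows, 23 with date-like names were left out. Cluster names follow the sheet order of the study's marker table. Levels of the 5 normal PT clusters were averaged without weights. Differences used log2 with a pseudocount of 1, a minimum larger level of 0.5 and a threshold of 0.2. No test and no model across mice was made, since 1 mouse per condition leaves no replicates. The calling rule was tested on simulated data. The 8 genes and all lists were chosen with earlier results of these data known. Named beside them are the 3 genes with the highest Pearson r among those with a mean of at least 0.1, the 3 leading genes of each list called in both genotypes or both AAI mice, and other exporters with a cluster mean of at least 5. Columns of other samples numbered 0. Python 3.11.15, pandas 2.3.3 and matplotlib 3.10.9 were used, with GENCODE M21 and RefSeq annotation of GRCm38. Alternatives were another pseudocount, filter, threshold and reference cluster set, centring, each AAI mouse alone, and leaving out clusters. Chromatin, cell line and tissue data were not analysed here.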

Additional observations from a re-analysis of the deposited data

Results flagged for a closer look

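In 7 gene and cluster pairs the AAI difference was called in opposite directions in the 2 genotypes, and the difference between genotypes was not tested, with 1 mouse on each side. Member pairs that passed numbered 106 in control and 98 in OE. Of all gene and cluster pairs, 27.6% were called higher in control and 31.6% in OE, and 25.2% and 26.2% lower. The share of all pairs called in opposite directions was not counted, so the 7 cannot be set against it. The values below are OE minus control differences on the log2(level + 1) scale. *Abcc1* in IC-B-2 gave 1.29 (-0.21 in control, 1.08 in OE) and *Abcc1* in LH-AL-3 gave -0.67 (0.27, -0.40). *Abcc2* gave 1.22 in LH-AL-2 (-0.74, 0.48), 0.65 in EC-2 (-0.29, 0.36) and 0.44 in LH-AL-1 (-0.24, 0.21). *Abcc4* in LH-AL-2 gave -0.64 (0.43, -0.21), and *Abca1* in IC-B-1 gave 0.65 (-0.40, 0.26). All lie outside the PT, and IC-B-2 and LH-AL-3 are among the clusters with the most genes at 0, at 46.3 to 53.01% and 60.5 to 63.4%.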

How the results depend on the processing

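No paired analysis was possible because each condition had 1 mouse. Counts of called members that moved by over 1.5 times were these. With PT-S1-S2 clusters only, 1 was called with AAI in control (3 with all 5 clusters) and 1 in OE (2). A minimum of 2 gave 1 in OE. Between genotypes without injury (2), a threshold of 0.5, PT-S3 only and PT-S1-S2 only each gave 1. With AAI (0), a pseudocount of 0.1 gave 2, and PT-S3 only, PT-S1-S2 only and centring on the median each gave 1. InjuredPT-A gave 6 in the control mouse alone (3), and InjuredPT-B 1 at a threshold of 0.5 and 2 after centring (4). Over clusters, 124 pairs were called in both genotypes together, and 48 at a threshold of 0.5. Leaving out EC-1 and DCT_CNT, an alternative added after seeing the data, gave 117. No member had the same top cluster in all 4 mice, and 2 did in the uninjured mice only. Reversed in sign were *Abcc4* with AAI in PT-S3 only (0.29 in control, 0.39 in OE) and *Abcc4* in InjuredPT-B against PT-S1-S2 only (-0.25) and in the control mouse alone (-0.54). Fewer clusters or mice entered these, and the cause of the others was not tested. Of 190 alternatives of 27 member differences, 156 kept direction and call, 14 lost the call, 10 gained one, 4 reversed, and 6 that were uncalled in both settings changed sign at sizes of up to 0.15.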
